A study of Mus musculus with 4 samples.

Results

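The MHC class I pathway was followed through 10 genes in primary mouse oligodendrocytes of knockout and control genotype for the long noncoding RNA lncOL1. The genes were taken by name from 23444 gene symbols and cover the heavy chains (H2-K1, H2-D1), their light chain (B2m), the peptide transporter and its bridge to the heavy chain (Tap1, Tap2, Tapbp), the inducible proteasome subunits (Psmb8, Psmb9, Psmb10) and the transcriptional activator of the pathway (Nlrc5). The knockout group held 2 samples of genotype lncOL1-/-. The control group held 2 samples whose genotype label names lncOL1+/+ and lncOL1+/- together, so which control carried a mutant allele is not given. All were of mixed strain background, and in both groups precursor cells had been given T3 for 1 day, a thyroid hormone that starts their maturation in culture. The sources used here do not give how the lncOL1 allele was made or whether each sample had its own animal or culture. The p-values therefore measure only how far these samples lay apart, and that distance may be technical.

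Cells show fragments of their own proteins to CD8 T cells on class I molecules. The proteasome cuts proteins into peptides, the Tap1 and Tap2 transporter carries these into the endoplasmic reticulum, and tapasin, the Tapbp product, helps load them onto a heavy chain paired with beta-2-microglobulin. The genes of this route are switched on together by interferon, and resting oligodendrocytes are known for low class I expression.

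Expression was measured as FPKM (fragments scaled by transcript length and by library size), so levels of different genes can be set side by side. Summed FPKM was 375762 and 381104 in the knockout libraries and 373484 and 383128 in the control libraries, and relative depth estimated from the lowest values lay between 0.946 and 1.19 of that of control replicate 1. lncOL1 itself was at 5.54 and 5.06 FPKM in the knockout libraries and at 28.9 and 34.0 FPKM in the control libraries (limma adjusted p = 0.000389), a log2 fold change of -2.36 ± 0.097 (SE). The cells carried oligodendrocyte lineage RNA: all 14 lineage markers passed the filter of a mean of 1 FPKM. Astrocyte RNA was present as well, with Gfap at 208 and 196 FPKM in knockout and 237 and 211 FPKM in control, whereas 0 of 14 endothelial, mural and fibroblast markers reached the filter.

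The class I genes were expressed at low to moderate levels. Over the 4 libraries B2m averaged 27.0 FPKM, above 75.6% of the genes tested, and H2-D1 averaged 14.9 FPKM, above 59.1%. Psmb10, Tapbp and H2-K1 followed at 8.43, 7.31 and 6.64 FPKM, and neighbours in that order had overlapping libraries. Tap2 averaged 2.14 FPKM and Tap1 1.45 FPKM, above 10.8% and 4.70% of the genes tested. Psmb8, Nlrc5 and Psmb9, at 0.734, 0.584 and 0.540 FPKM, lay under the filter and overlapped one another, so they were read from their values and from a second fit with a minimum of 0.5 FPKM, which all 10 genes passed. Psmb9 passed that lower minimum only through its knockout libraries and Nlrc5 only through its control libraries, so each had to differ in its direction and neither adds support to a count.

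No class I gene passed the test between the groups. Of the 7 genes tested among 11361, 0 were higher and 0 lower at a limma adjusted p under 0.05, where 0.528% of all genes tested were higher and 0.783% lower. Without adjustment, at p under 0.05, 4 of the 7 were higher and 0 lower, against 7.13% and 6.58% of all genes tested. Both knockout libraries stood above both control libraries for 5 of the 7 tested genes and below them for 0, against 22.6% and 20.7% of all genes tested. As a description, over all 10 genes they stood above for 7 and below for 1, and groups overlapped for 2. Psmb9 is among the 7 and Nlrc5 is the 1 below, and neither adds support to this count. Of the 12283 genes that passed the lower minimum, 23.1% stood above in that sense and 20.6% below. The median log2 fold change of the 10 genes in that fit was 0.27, beside 0.01 over all its genes, given as a description since it includes Psmb9 and Nlrc5.

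**Figure D1:**
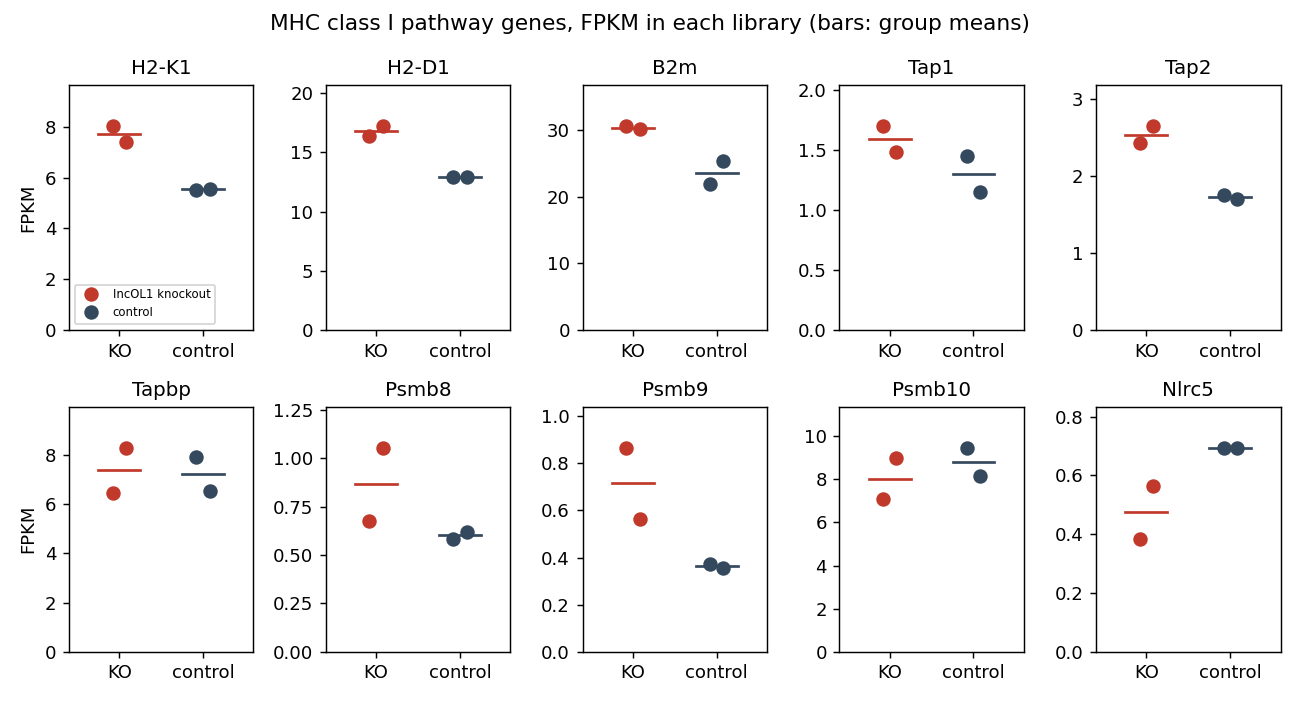
FPKM (y axis, from 0, a scale for each gene) of the 10 class I pathway genes in the 2 lncOL1 knockout libraries (red, left) and the 2 control libraries (dark, right); points are libraries and bars are group means. H2-K1, H2-D1, B2m, Tap1, Tap2, Psmb8 and Psmb9 have both knockout libraries above both control libraries, Nlrc5 has them below, and Tapbp and Psmb10 overlap.

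H2-K1 encodes the classical heavy chain K, which binds the peptide (chromosome 17, 33996012 to 34000333, minus strand, mm10). It had 8.04 and 7.42 FPKM in the knockout libraries and 5.53 and 5.56 FPKM in the control libraries. Both knockout libraries were thus above both control libraries, which lay close together. The group means were 7.73 ± 0.440 FPKM in knockout and 5.54 ± 0.0199 FPKM in control (SD, n = 2 each), 39.5% higher in knockout. The log2 fold change was 0.42 on the log2(FPKM + 1) scale, with a 95% interval of 0.23 to 0.60 and a limma adjusted p = 0.0649, which missed the threshold. With a pseudocount of 0.1 in place of 1 the limma adjusted p was 0.0444, and it ran from 0.0364 to 0.316 over all alternatives.

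H2-D1 encodes the classical heavy chain D (chromosome 17, 35263094 to 35267497, plus strand). It had 16.4 and 17.3 FPKM in the knockout libraries and 12.9 FPKM in each control library. Again the groups did not overlap. The means of 16.8 ± 0.612 FPKM in knockout and 12.9 ± 0.00460 FPKM in control (SD, n = 2 each) differed by 30.0%, with a log2 fold change of 0.35 (95% interval 0.19 to 0.52, limma adjusted p = 0.0757). H2-D1 was more abundant than H2-K1 in every library, by 2.04 and 2.32 times in the knockout libraries and by 2.34 and 2.33 times in the control libraries.

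B2m encodes beta-2-microglobulin, the light chain shared by class I molecules (chromosome 2, 122147687 to 122153082, plus strand). Its FPKM was 30.7 and 30.1 in the knockout libraries and 21.9 and 25.4 in the control libraries. The knockout libraries were close together and above both controls, which lay further apart. The means were 30.4 ± 0.396 FPKM in knockout and 23.6 ± 2.46 FPKM in control (SD, n = 2 each), with a log2 fold change of 0.35 (95% interval 0.15 to 0.56, limma adjusted p = 0.132). The level of B2m relative to the summed level of H2-K1 and H2-D1 overlapped between groups, at 1.26 and 1.22 times in the knockout libraries and 1.19 and 1.37 times in the control libraries.

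These 3 genes also share short sequence motifs in front of their starts. The motifs are shown here because the 3 proteins form the surface molecule itself and the groups of these genes did not overlap. Class I promoters are known for an NF-kappaB site, an interferon regulatory factor (IRF) site and the SXY module, whose X2 part resembles a cyclic AMP response element and whose Y part is a CCAAT box. The windows run 5′ to 3′ on the strand of each gene and come from RefSeq (GRCm38.p6, the assembly of mm10). Capitals mark matches to the letters searched on both strands: GGGA and CC with any 4 bases between them for NF-kappaB (2 overlapping matches in each window), AANNGAAA for the IRF core, TGACG for the X2 part and CCAAT for the Y part. The letters were chosen with these sequences in view.
H2-K1, chr17:34000348-34000597, minus strand: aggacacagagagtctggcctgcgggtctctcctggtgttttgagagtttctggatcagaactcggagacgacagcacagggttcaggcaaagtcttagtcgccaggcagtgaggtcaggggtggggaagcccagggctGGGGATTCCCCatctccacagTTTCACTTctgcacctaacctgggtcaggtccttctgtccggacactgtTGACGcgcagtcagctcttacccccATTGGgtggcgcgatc
B2m, chr2:122147437-122147685, plus strand: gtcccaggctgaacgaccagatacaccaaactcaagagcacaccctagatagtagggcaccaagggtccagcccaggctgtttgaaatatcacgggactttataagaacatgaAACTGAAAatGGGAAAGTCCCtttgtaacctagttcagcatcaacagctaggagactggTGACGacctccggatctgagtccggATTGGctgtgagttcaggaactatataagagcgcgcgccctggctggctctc

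The NF-kappaB and IRF letters sit beside each other in all 3 genes, as the stretches below show.
H2-K1, chr17:34000430-34000458, minus strand: GGGGATTCCCCatctccacagTTTCACTT
H2-D1, chr17:35262923-35262951, plus strand: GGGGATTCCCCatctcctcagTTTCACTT
B2m, chr2:122147550-122147570, plus strand: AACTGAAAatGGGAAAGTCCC
In both heavy chain genes the NF-kappaB letters come first, and in B2m the IRF core comes first. H2-K1 also had another, overlapping window, chr17:34000334-34000583, which is not printed here. Without gaps, 169 of 204 aligned bases (82.8%) were identical between that window and the H2-D1 window. Of the 10 genes, 8 had a window, of 250 bases except for Tap1 (225 bases). H2-K1, H2-D1 and B2m were the ones that held all 4 motifs, as did 65 of 32841 windows in all (0.198%). The 65 include the windows of these 3 genes. As the letters were chosen with these sequences in view, the share does not measure rarity. Taken one at a time, the motifs were present in 17.6% (NF-kappaB), 21.3% (IRF core), 17.8% (X2) and 33.9% (CCAAT) of all windows. Tap1 and Psmb9, whose RefSeq starts lie back to back, held the X2 and CCAAT letters. Tapbp held CCAAT, and Psmb8 and Psmb10 held none of the 4. In the GENCODE annotation Psmb8, Psmb9, Tapbp and H2-D1 start upstream of these windows, and Psmb10 starts inside its window. Only RefSeq windows were searched, so missing letters describe these windows alone and not every start of a gene. A match describes letters and does not show that a factor binds there.

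**Figure D2:**
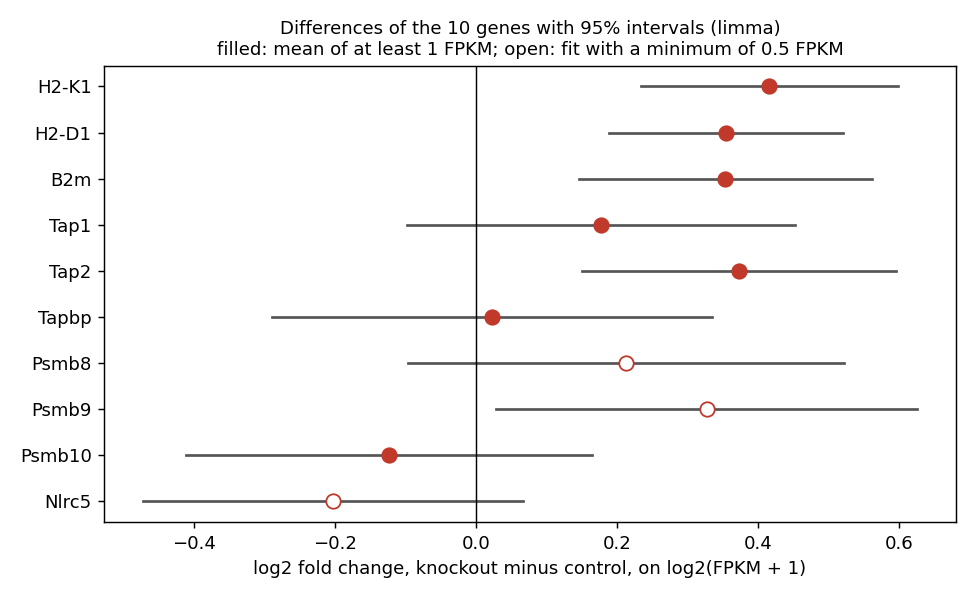
log2 fold change (x axis, knockout minus control, on log2(FPKM + 1)) of the 10 genes with 95% intervals from limma; filled points come from the fit with a mean of at least 1 FPKM and open points from the fit with at least 0.5 FPKM. The intervals of H2-K1, H2-D1, B2m, Tap2 and Psmb9 lie above 0, none of them with an adjusted p under 0.05, and those of Tap1, Tapbp, Psmb8, Psmb10 and Nlrc5 include 0.

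The peptide transporter genes were low in both groups. Tap2 (chromosome 17, 34204479 to 34216321, plus strand) had 2.43 and 2.66 FPKM in the knockout libraries and 1.76 and 1.70 FPKM in the control libraries. Its groups did not overlap, with means of 2.54 ± 0.163 FPKM in knockout and 1.73 ± 0.0412 FPKM in control (SD, n = 2 each). The log2 fold change was 0.37 (95% interval 0.15 to 0.60, limma adjusted p = 0.137). Tap1 (chromosome 17, 34187556 to 34197225, plus strand) had 1.70 and 1.49 FPKM in the knockout libraries and 1.45 and 1.15 FPKM in the control libraries. The lower knockout library and the higher control library of Tap1 were nearly level, and its log2 fold change of 0.18 had a 95% interval of -0.10 to 0.45 (limma adjusted p = 0.586). Tap2 exceeded Tap1 in every library, by 1.42 and 1.79 times in knockout and 1.21 and 1.48 times in control.

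Tapbp encodes tapasin (chromosome 17, 33919478 to 33929290, plus strand). Its FPKM was 6.47 and 8.31 in the knockout libraries and 7.92 and 6.55 in the control libraries. The groups overlapped, and the log2 fold change was 0.02 (95% interval -0.29 to 0.33, limma adjusted p = 0.968), which turned to -0.10 without control replicate 2 and to -0.14 without knockout replicate 2.

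The inducible proteasome subunits replace the catalytic subunits of the standard proteasome when cells meet interferon: Psmb8 takes the place of Psmb5, Psmb9 that of Psmb6 and Psmb10 that of Psmb7. Psmb9 (chromosome 17, 34182099 to 34187330, minus strand) had 0.867 and 0.566 FPKM in the knockout libraries and 0.371 and 0.356 FPKM in the control libraries. Both knockout libraries were above both controls but differed from each other by more than the lower one differed from the controls. In the fit with the lower minimum its log2 fold change was 0.33 (95% interval 0.03 to 0.62, limma adjusted p = 0.313). With a pseudocount of 0.1 the same difference was 0.79, since 1 is large beside these values.

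Psmb8 (chromosome 17, 34198195 to 34201454, plus strand) had 0.676 and 1.06 FPKM in the knockout libraries and 0.583 and 0.621 FPKM in the control libraries, a narrow gap between groups with a log2 fold change of 0.21 (95% interval -0.10 to 0.52, limma adjusted p = 0.542 with the lower minimum). Psmb10 (chromosome 8, 105935728 to 105938392, minus strand) had 7.10 and 8.98 FPKM in the knockout libraries and 9.48 and 8.15 FPKM in the control libraries. Its groups overlapped, with a log2 fold change of -0.12 (95% interval -0.41 to 0.16, limma adjusted p = 0.744), which was 0.027 without knockout replicate 1.

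Set beside their constitutive counterparts, the inducible subunits were a small share in every library. Psmb8 stood at 0.453% and 0.664% of the Psmb5 level in the knockout libraries and at 0.380% and 0.453% in the control libraries, with the nearest libraries of the 2 groups level. Psmb9 stood at 0.504% and 0.314% of Psmb6 in the knockout libraries and at 0.201% and 0.211% in the control libraries, so both knockout libraries were above both controls. Psmb10 stood at 5.08% and 6.91% of Psmb7 in the knockout libraries and at 6.99% and 6.20% in the control libraries, where the groups overlapped. Among the counterparts themselves, the log2 fold change was 0.08 for Psmb5, -0.003 for Psmb6 and 0.01 for Psmb7 (limma adjusted p = 0.748, 0.991 and 0.971).

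**Figure D3:**
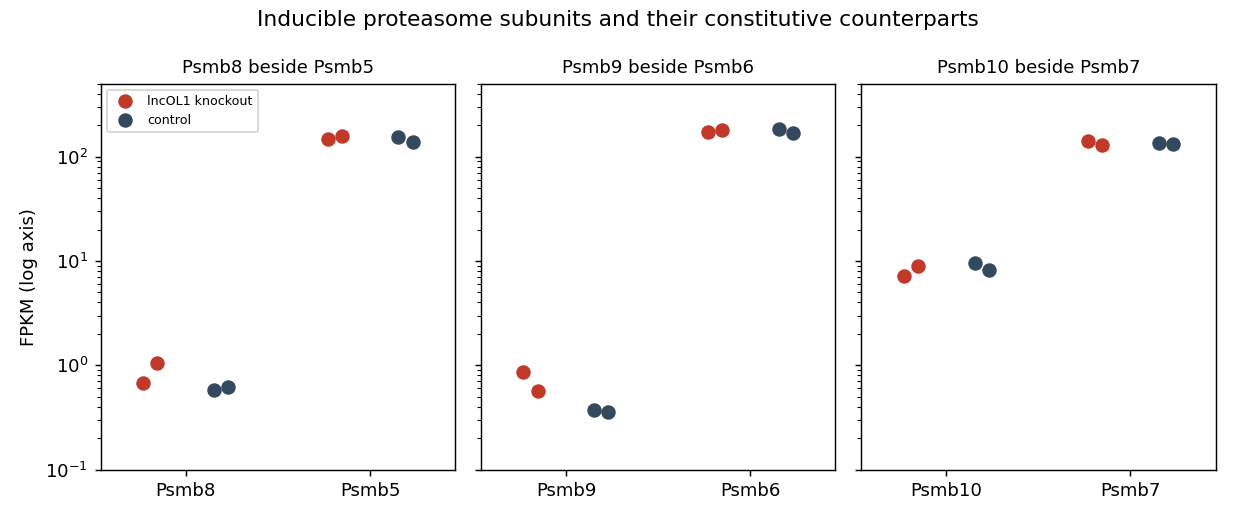
FPKM (y axis, log scale) of the inducible subunits Psmb8, Psmb9 and Psmb10 and of their constitutive counterparts Psmb5, Psmb6 and Psmb7 in the knockout (red, left of each pair) and control libraries (dark). Psmb8 and Psmb9 lie near 1 FPKM or under it and Psmb10 between 7.10 and 9.48 FPKM, while each counterpart lies above 100 FPKM in every library.

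Nlrc5 encodes the activator that, with the RFX factors, drives class I genes through the SXY module (chromosome 8, 94472763 to 94527272, plus strand). It had 0.385 and 0.564 FPKM in the knockout libraries and 0.692 and 0.695 FPKM in the control libraries. It was the 1 member with both knockout libraries below both controls, opposite in direction to the heavy chains. Its log2 fold change was -0.20 with the lower minimum (95% interval -0.47 to 0.07, limma adjusted p = 0.503) and -0.48 with a pseudocount of 0.1.

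The authors' deposited table, which compares the groups by its own pooled FPKM, called 0 of the 10 genes, where it called 1.74% of its tested genes higher and 4.04% lower. It gives positive log2 fold changes for 7 of them. Its p-value was under 0.05 for 3 higher genes (B2m, H2-D1 and H2-K1) and for 1 lower gene (Nlrc5), against 4.09% higher and 9.51% lower of its tested genes. In the authors' deposited table the log2 fold change was 0.38 with q = 0.0565 for B2m, 0.32 with q = 0.0935 for H2-D1, 0.38 with q = 0.205 for H2-K1 and -0.61 with q = 0.103 for Nlrc5.

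Some of these values can hold reads of other genes. Of the 50-base words in its GENCODE transcripts, H2-K1 shares 9.63% and H2-D1 12.8% with other genes. The nearest of these are H2-Q10 for H2-K1 (5.18%) and H2-Q1 for H2-D1 (5.87%), and each heavy chain shares 4.08% or 5.44% of its words with the other. Tapbp shares 20.3% with the antisense gene Gm19412, Psmb8 11.6% with the antisense gene Gm20496 and Tap2 9.22% with the opposite-strand Gm15821. In GENCODE, unlike the RefSeq starts above, Tap1 and Psmb9 overlap at their starts (2.88% and 4.19%). The strand setting of the authors' counting is not given, so these pairs cannot be told apart. B2m and Psmb10 shared 0% with any other gene. The H2 haplotype of the samples, at a locus known to differ between mouse strains, is not given either.

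Other class I chains were mostly silent. Of 30 such genes 5 passed the filter, 0 were called, and 16 averaged under 0.1 FPKM. The most abundant, H2-Q4, had 4.77 and 3.30 FPKM in the knockout libraries and 4.35 and 3.69 FPKM in the control libraries (log2 fold change -0.01, limma adjusted p = 0.987). Cd1d1, which presents lipids, had a log2 fold change of 0.10 (limma adjusted p = 0.722). Picked after their values were seen, H2-T22 had 2.71 and 2.04 FPKM in knockout and 1.41 and 1.64 FPKM in control (log2 fold change 0.42, limma adjusted p = 0.210), and H2-T24 had 0.841 and 0.697 FPKM in knockout and 0.142 and 0.155 FPKM in control. H2-T24, 5.17 times higher in knockout by its means but under the filter, had a limma adjusted p = 0.0629 in a fit with no filter, and the authors' deposited table calls it higher (log2 fold change 2.30, q = 0.0108).

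The general machinery of peptide supply was abundant, and none of its genes was called. Of 20 genes of peptide loading and trimming 19 were tested, with a median log2 fold change of -0.01. The most abundant were Calr, the chaperone calreticulin, at 494 and 444 FPKM in knockout and 415 and 379 FPKM in control (log2 fold change 0.24, limma adjusted p = 0.287), and Hspa5, the endoplasmic reticulum chaperone BiP (0.20, limma adjusted p = 0.492). The authors' deposited table calls Calr higher, with a log2 fold change of 0.21 and q = 0.0267. All 19 genes of the constitutive proteasome core were tested, with a median of -0.003, and all 5 activator genes, with a median of 0.001. Psmb4, a structural core subunit, had a log2 fold change of 0.03, and Psme3 and Psme2, subunits of proteasome activators, had 0.07 and 0.001 (limma adjusted p = 0.912, 0.735 and 0.998). Over all genes tested the median was 0.005.

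Of 25 regulators of class I expression all were tested, 0 were called and the median log2 fold change was 0.07. The 2 most abundant were Ezh2, a repressive histone methyltransferase, at 26.9 and 22.8 FPKM in knockout and 28.2 and 27.1 FPKM in control (log2 fold change -0.15, limma adjusted p = 0.542), and Nfyc, a subunit of the CCAAT-binding factor, with 0.09 (limma adjusted p = 0.704). Both knockout libraries stood above both control libraries for 8 of the 25 and below for 5, against 22.6% and 20.7% of all genes tested. Some regulators were picked after their values were seen, for their roles. Of these, Rfx5 and Ifngr2 had the highest log2 fold changes of the list. Rfx5, a subunit of the RFX complex that binds the SXY module, had 8.01 and 7.63 FPKM in knockout and 6.26 and 5.73 FPKM in control (log2 fold change 0.34, limma adjusted p = 0.120). It is called higher in the authors' deposited table (0.33, q = 0.0366). Ifngr2, a chain of the interferon-gamma receptor, had 9.42 and 10.01 FPKM in knockout and 7.21 and 8.04 FPKM in control (0.31, limma adjusted p = 0.153), and is not called there (q = 0.208 in the authors' deposited table). Irf1, an interferon-induced activator of these promoters, had 4.88 and 4.52 FPKM in knockout and 5.19 and 5.14 FPKM in control (-0.11, limma adjusted p = 0.610).

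Of 35 interferon-stimulated genes 9 passed the filter and 13 averaged under 0.1 FPKM. None was called, with a median log2 fold change of 0.15. Unadjusted, 4 of the 9 had p under 0.05 and were higher, and 1 was lower, against 7.13% and 6.58% of all genes tested. Ifitm3, a membrane protein that restricts viral entry, had 11.8 and 14.8 FPKM in knockout and 8.97 and 9.44 FPKM in control (log2 fold change 0.48, limma adjusted p = 0.110), and is not called in the authors' deposited table (q = 0.293). Ifi27 had 6.80 and 7.17 FPKM in knockout and 3.89 and 4.89 FPKM in control (0.57, limma adjusted p = 0.0660). The class II route, used by professional antigen-presenting cells, was nearly absent: 2 of 12 genes were tested, and H2-Eb2, H2-DMb1, H2-DMb2 and H2-Oa were listed at 0 in all libraries. H2-DMa had 3.91 and 5.68 FPKM in knockout and 4.87 and 4.17 FPKM in control (0.06, limma adjusted p = 0.930). Ctss, a lysosomal protease that is also a microglial marker, had 3.19 and 2.72 FPKM in knockout and 1.60 and 0.996 FPKM in control (0.79, limma adjusted p = 0.0668), and the authors' deposited table calls it higher (1.17, q = 0.00473).

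**Figure D4:**
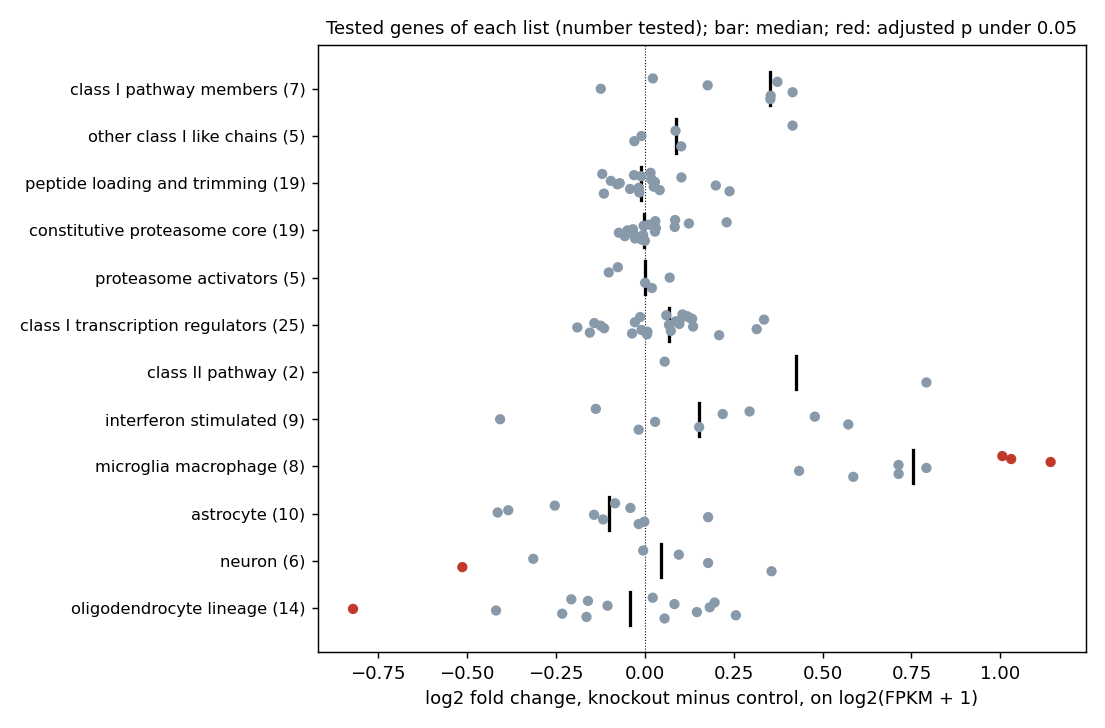
log2 fold change (x axis, knockout minus control, on log2(FPKM + 1)) of each tested gene of the class I genes and the related lists, 1 row of points per list, with the list median as a bar, called genes in red and the number tested in brackets. The peptide loading, proteasome core and activator lists are centred near 0, and the microglia and macrophage markers lie to the right, with a median of 0.75.

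Microglial RNA, which also carries class I transcripts, differed between the groups beside the class I genes. Summed over 20 microglia and macrophage markers it came to 36.1 and 41.8 FPKM in the knockout libraries and 16.4 and 18.2 FPKM in the control libraries. Both knockout libraries were above both controls for all 8 tested markers, against 22.6% of all genes tested. Over all 20 markers, 12 of them under the filter, they were above for 17 and below for 0. Of the 8 tested, 3 were called higher, against 0.528% of all genes tested: Fcrls with a log2 fold change of 1.14, Laptm5 with 1.03 and Tyrobp with 1.01 (limma adjusted p = 0.00489, 0.0101 and 0.0119). The authors' deposited table calls Fcrls and Laptm5 higher but not Tyrobp (q = 0.134). None of the 3 calls held without either knockout library, and without control replicate 1 the count was 1. None of the 20 was listed at 0 in any library, the lowest value being 0.0453 FPKM. The 10 class I genes summed to 74.7 and 78.4 FPKM in the knockout libraries and 62.6 and 63.1 FPKM in the control libraries. The part of microglial RNA in the class I values was not tested. In RNA of a whole culture, fewer cells of a type and less RNA per cell cannot be told apart.

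The 14 oligodendrocyte lineage markers summed to 9450 and 9646 FPKM in knockout and 11214 and 11326 FPKM in control, with Mbp, a myelin protein gene, the 1 called lower (log2 fold change -0.82, limma adjusted p = 0.00504). The 11 astrocyte markers summed to 558 and 537 FPKM in knockout and 595 and 565 FPKM in control, and 0 of the 10 tested were called. Of these 10, 1 stood above and 5 below, against 22.6% and 20.7% of all genes tested, and their median log2 fold change was -0.10. Of 11 neuron markers 6 were tested, and the 5 under the filter averaged between 0.106 FPKM (Stmn2) and 0.725 FPKM (Nefm). Elavl3, at 100 FPKM on average, was called lower (log2 fold change -0.51, limma adjusted p = 0.0263). Whether its RNA came from neurons was not tested. The 6 had no common direction: 2 stood above and 2 below, against 22.6% and 20.7% of all genes tested, and their median was 0.05. Map2 had a log2 fold change of 0.18 (limma adjusted p = 0.356) and Dcx, picked after its value was seen, one of 0.36 (limma adjusted p = 0.129). Neither Mbp nor Elavl3 was called when any 1 library was left out. The 14 endothelial, mural and fibroblast markers summed to 2.42 and 1.58 FPKM in knockout and 2.69 and 2.73 FPKM in control. What these markers contribute to the class I values was not tested.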

How the data were processed

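RNA-seq of 4 samples was analysed, 2 lncOL1 knockout and 2 control. The authors deposited FPKM per gene and sample; the tools listed in the submitters' processing notes are Cufflinks, Cuffdiff, TopHat and CASAVA, on mm10, without versions or roles. The authors also deposited a comparison table with p-values, q-values and log2 fold changes, used here as given. The FPKM files hold no counts, so no count model was run. Rows of the same symbol were summed (258 symbols, no class I gene), and 9 symbols with a failed estimate were left out. Genes that averaged 1 FPKM or more (11361) were fitted with limma 3.58.1 in R 4.3.3 on log2(FPKM + 1), with an eBayes trend and Benjamini-Hochberg adjustment, two-sided, called at 0.05, after tests on simulated data. A pseudocount of 1 shrinks the fold changes of low genes. Depth was estimated only in relative terms.

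The class I genes and all lists were chosen with earlier results of these data known. The genes named from each list are its 2 most abundant tested members and every called member, unless stated otherwise; some genes are not reported here. Sequences and motif shares come from RefSeq promoter windows (GRCm38.p6), and shared 50-base words from GENCODE M21. Alternatives changed the pseudocount, filter, scaling, eBayes trend and row choice, added a replicate block, or left out each library.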

Additional observations from a re-analysis of the deposited data

How the results depend on the processing

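The count of all genes called, 60 higher and 89 lower, was 1 and 3 with no filter on low values (17397 genes tested), 158 and 183 with the replicate block, and 11 to 16 and 5 to 26 when each library was left out. Of the class I genes, 1 was called with a pseudocount of 0.1 (H2-K1, log2 fold change 0.47, limma adjusted p = 0.0444), 2 with the replicate block (H2-K1 and H2-D1, limma adjusted p = 0.0364 and 0.0462) and 0 to 0 with each library left out. Of the related lists, 3 genes were called higher and 2 lower, against 0 and 0 with no filter, 9 and 3 with the block, and 0 to 2 and 0 to 0 with each library left out. Same-numbered libraries did not deviate together over the genes as a whole (r = -0.0523 over 11361 genes). Whether they were prepared as pairs is not given, and 1 correlation over all genes cannot exclude it. The blocked counts only show how far that fit moves calls. With each library left out, Tapbp ran from -0.14 (knockout replicate 2 left out) to 0.18, with -0.10 when control replicate 2 was left out, and Psmb10 ran from -0.27 to 0.027, the highest being with knockout replicate 1 left out. The cause was not tested. Across all alternatives the log2 fold change stayed within 0.36 to 0.47 for H2-K1, 0.32 to 0.39 for H2-D1, 0.25 to 0.46 for B2m and 0.33 to 0.53 for Tap2. It ran more widely for Tap1 (0.08 to 0.28), Psmb8 (0.065 to 0.43), Psmb9 (0.20 to 0.79) and Nlrc5 (-0.48 to -0.11). Leaving out 1 library alone moved each of these by over 1.5 times in at least 1 such fit. Tap1 was 0.12 without knockout replicate 1, 0.27 without control replicate 1 and 0.08 when control replicate 2 was dropped. Psmb8 was 0.36, Psmb9 0.20 and Nlrc5 -0.11 when knockout replicate 1 was dropped, and they were 0.065, 0.45 and -0.29 when knockout replicate 2 was dropped. Depth is known only in relative terms, so counting error of Psmb8, Psmb9 and Nlrc5, all under 1 FPKM on average, could not be computed, and with 2 samples a group no exact permutation test can pass 0.05.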

Other observations

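The class I genes of chromosome 17 lie within the interval bounded by Tapbp and H2-D1 (33919478 to 35267497, mm10), where 51 genes were tested. Of these 0 were called higher and 1 lower, against 0.528% and 0.783% of all genes tested. At an unadjusted p under 0.05, 8 were higher and 4 lower, against 7.13% and 6.58%, and H2-K1, H2-D1 and Tap2 were among the 8. Their median log2 fold change was 0.04. The gene called lower was Ly6g6d, at 6.57 and 5.71 FPKM in the knockout libraries and 14.4 and 10.4 FPKM in the control libraries (log2 fold change -0.90, limma adjusted p = 0.0456), named after its value was seen.

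Outside the class I genes, 33 tested genes had promoter windows with all 4 motifs found before H2-K1, H2-D1 and B2m. None of them was called, both knockout libraries were above both controls for 8 and below for 4, and the groups overlapped for 21, where 22.6% of all genes tested stood above and 20.7% below. Their median log2 fold change was 0.03.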
